A study of Homo sapiens with 26 samples.

Results

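The 8 genes described here, NFS1, ISCU, LYRM4, HSCB, GLRX5, ISCA1, ISCA2 and NFU1, encode proteins that build iron-sulfur clusters in the mitochondrial matrix. They were chosen by name, for this shared function and not for any measured value, from the 60663 genes of the RNA-seq tables, and all 8 are among the 1058 nuclear-encoded mitochondrial genes in the study's list. Iron-sulfur clusters are small cofactors of iron and sulfide that carry electrons or take part in catalysis, and the respiratory chain and the enzymes of lipoic acid synthesis depend on them. Assembly starts on the scaffold ISCU, where the cysteine desulfurase NFS1, held in an active complex by LYRM4 (also known as ISD11), provides the sulfur. The co-chaperone HSCB then helps the mitochondrial Hsp70 to release the new cluster to the glutaredoxin GLRX5, and the late-acting ISCA1, ISCA2 and NFU1 serve the maturation of proteins that carry 4Fe-4S clusters. All 8 proteins are translated from nuclear mRNAs and have to reach the mitochondrion.

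The study measured where in the cell proteins are made, in HEK293T, a human embryonic kidney line. The endogenous ribosomal protein RPL29 of these cells carries the Avi tag, and the blue-light-dependent biotin ligase LOV-BirA was expressed at the ER (a Sec61β fusion under the SFFV promoter), at the outer mitochondrial membrane (OMM; a fusion to the transmembrane domain of OMP25 with GFP, under the EF1α promoter) or free in the cytosol. These ligases were delivered by lentivirus and the lines were sorted pools, not clones. Ribosomes that met the ligase during a blue light pulse with biotin were pulled down on streptavidin, and each pulldown has a total input from the same lysate. Ribosome footprints were sequenced for the 3 locations, each with cycloheximide (CHX) and 2 replicates, 12 libraries. Intact mRNA on ribosomes labelled at the OMM was sequenced for 4 groups, 14 libraries. Wild-type with a negative control gRNA, AKAP1 null and LARP4 null cells had 2 replicates per genotype. Cells without CHX had 1 replicate with a shorter light pulse, and their labels give no genotype or gRNA. Each null line is monoclonal, so genotype and clone cannot be told apart, and CHX treatment of the null lines was taken from the general protocol. All cells of every group carry the RPL29 tag and a ligase. Nothing used here says whether the 2 replicates of a line are more than separate cultures of it, so p-values measure the spread between such samples. The log2 enrichment of a gene is the log2 ratio of its share of the counts in the pulldown to its share in the matched total input. As an average over a lysate, it cannot tell apart fewer cells with the mRNA at the OMM and less of it there in each cell.

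The genotypes were checked first on the targeted genes. AKAP1, an RNA-binding anchor protein of the OMM, stood at 115 and 119 CPM (counts scaled to a common library total) in the wild-type total inputs, at 32.2 and 20.3 CPM in the AKAP1 null inputs and at 120 and 142 CPM in the LARP4 null inputs. LARP4, an RNA-binding protein of the La family, stood at 225 and 231 CPM in wild-type, 216 and 247 CPM in AKAP1 null and 79.3 and 74.0 CPM in LARP4 null inputs. Each targeted gene was thus lowest in the line labelled as its null, with transcript still present. Of the markers of this line, NEFL, NEFM, INA and LIN28B ranged from 25.4 to 268 CPM over the total inputs. Of the markers of other cell types, HBB and COL1A2 had no count, ALB, PTPRC and CDH5 reached at most 0.156 CPM, and COL1A1 lay between 7.16 and 23.1 CPM. RNA-seq libraries held 38347615 to 100840544 counts and footprint libraries 1025114 (OMM pulldown, replicate 1) to 19539527 (ER pulldown, replicate 1) estimated counts in coding sequences.

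The proteins run from 91 to 457 aa, and the study separates short coding sequences (under 200 aa) from long ones (over 400 aa). By this division LYRM4 (91 aa), ISCA1 (129 aa), ISCA2 (154 aa), GLRX5 (157 aa) and ISCU (167 aa) are short, HSCB (235 aa) and NFU1 (254 aa) lie between, and NFS1 (457 aa) alone is long. In GENCODE 44 on GRCh38, NFS1 lies at chr20:35668052-35699355 on the minus strand with 13 coding exons, ISCU at chr12:108562582-108569368 on the plus strand with 5, and LYRM4 at chr6:5103629-5260950 on the minus strand with 3. HSCB lies at chr22:28742039-28757515 on the plus strand with 6 coding exons and GLRX5 at chr14:95533503-95544724 on the plus strand with 2. ISCA1 lies at chr9:86264546-86283102 on the minus strand with 4 coding exons, ISCA2 at chr14:74493756-74497106 on the plus strand with 4, and NFU1 at chr2:69396113-69437628 on the minus strand with 8. The GC content of the coding sequences was highest in GLRX5 (64.6%) and ISCA2 (58.3%) and lowest in NFU1 (44.3%) and ISCA1 (43.1%). The shortest and the longest coding sequence of the set belong to proteins of 1 complex and moved in opposite directions in AKAP1 null cells, so both are shown, LYRM4 whole with its start and stop codons in capitals and NFS1 by its first 276 of 1374 nt with its start codon in capitals, both from the GRCh38 reference with GENCODE 44 exons, 5′ to 3′ on the coding strand (coding spans chr6:5109426-5260733 and chr20:35669625-35699288, both minus strand, introns removed).
LYRM4: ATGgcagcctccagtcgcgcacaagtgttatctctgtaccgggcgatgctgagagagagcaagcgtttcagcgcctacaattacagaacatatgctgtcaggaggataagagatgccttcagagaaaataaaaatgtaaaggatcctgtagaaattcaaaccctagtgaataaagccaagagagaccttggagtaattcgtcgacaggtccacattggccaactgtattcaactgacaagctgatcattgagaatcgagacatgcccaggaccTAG
NFS1: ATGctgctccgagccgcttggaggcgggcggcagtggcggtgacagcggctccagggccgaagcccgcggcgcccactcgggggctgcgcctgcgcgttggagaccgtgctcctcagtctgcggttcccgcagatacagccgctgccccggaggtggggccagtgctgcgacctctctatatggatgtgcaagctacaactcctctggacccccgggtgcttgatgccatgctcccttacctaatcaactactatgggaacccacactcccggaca
The printed stretch of NFS1 is 20.1% of its coding sequence, while the same length is all of LYRM4.

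The mRNAs of the 8 genes differed in level in the RNA-seq total inputs, with medians from 5.42 (NFS1) to 27.9 (GLRX5). On the scale of CPM per kb of gene model, GLRX5 was highest, with 25.7, 27.9 and 30.5 as the lowest, median and highest of the 7 total inputs, followed by NFU1 with 20.5, 23.4 and 28. The middle of the order held ISCA1 (12.3, 13.4 and 16.6), HSCB (10.1, 12.5 and 16.1) and ISCU (10.3, 10.5 and 14.2). ISCA2 (7.96, 8.51 and 9.54), LYRM4 (5.11, 6.23 and 7.07) and NFS1 (4.88, 5.42 and 6.05) were lowest on this scale. The gene model takes all annotated exons together, 3950 nt for LYRM4, 6023 nt for NFS1 and 4423 nt for ISCU. Their main transcripts have 1497, 3008 and 983 nt, so the order between genes depends on the length used. The ranges of NFU1 and ISCA1, of ISCU and ISCA2, and of ISCA2 and LYRM4 did not overlap, and these pairs had the same order in 7 of 7 inputs. The pairs GLRX5 and NFU1, ISCA1 and HSCB, HSCB and ISCU, and LYRM4 and NFS1 had overlapping ranges and kept their order in 6 of 7 inputs. Footprint density in coding sequences, as deposited RPKM over the 6 footprint total inputs, was close among the 4 members with enough coding footprints: 78.8, 92.2 and 117 (lowest, median and highest) for ISCA2, 59.5, 78.0 and 85.7 for GLRX5, 69.2, 70.9 and 91.2 for HSCB and 53.2, 69.3 and 80.6 for LYRM4. These 4 ranges overlapped, but within each library ISCA2 was the highest of the 4, in 6 of 6, while the order of the other 3 varied.

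**Figure D1:**
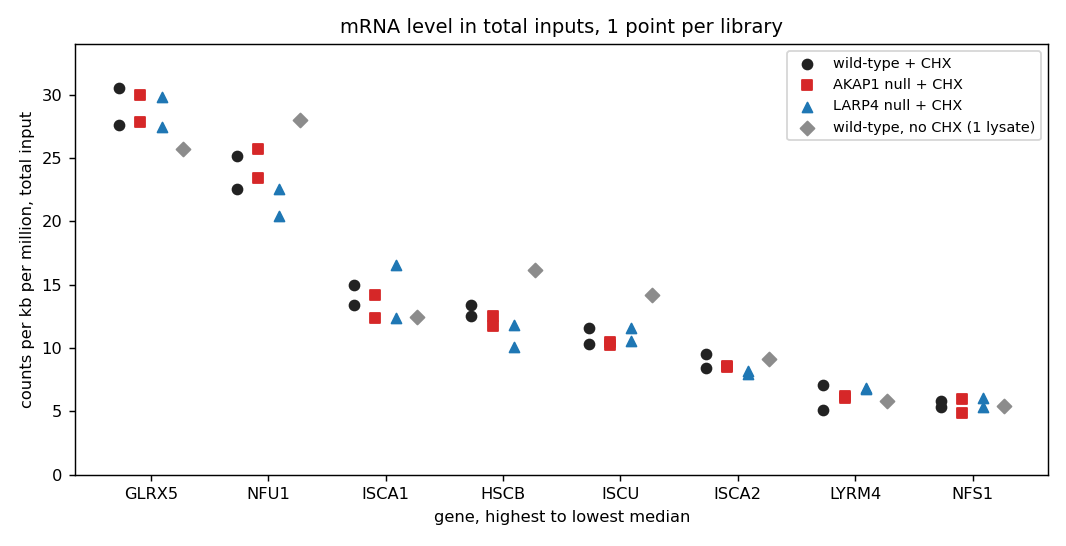
mRNA level of each gene in the 7 RNA-seq total inputs (y axis, CPM per kb of gene model, linear, from 0), 1 point per library, genes ordered by their median. GLRX5 and NFU1 sit above 20 in every library and NFS1 and LYRM4 below 7.1. The input without CHX is the highest for NFU1, HSCB (16.1) and ISCU (14.2) and the lowest for GLRX5 (25.7). For ISCA1, ISCA2, LYRM4 and NFS1 it lies among the other inputs.

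Total inputs asked whether loss of AKAP1 or LARP4 changed the amount of these mRNAs in the cell. None of the 8 passed the test between AKAP1 null and wild-type inputs, with log2 differences from −0.09 (ISCA1) to 0.05 (NFU1), and none between LARP4 null and wild-type, from −0.23 (HSCB) to 0.17 (LYRM4). By the edgeR quasi-likelihood test with Benjamini-Hochberg adjustment, 0 of 13977 genes (0.0%) were called in AKAP1 null and 2 (0.0143%) in LARP4 null inputs. At an unadjusted p below 0.05 there were 489 and 509 genes, none of them a member, and DESeq2 called 15 and 28 genes, again without a member. The interval of NFS1 in AKAP1 null cells ran from −0.37 to 0.30 on the log2 scale and that of LYRM4 from −0.42 to 0.45. Changes inside these bounds were therefore not excluded with 2 replicates.

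Ribosome profiling asked where the members are translated. Only LYRM4, HSCB, GLRX5 and ISCA2 could be measured in their coding sequences at all 3 locations. The study masked regions to which reads cannot align uniquely. The deposited tables give 47 nt of ISCU, 32 nt of ISCA1 and 161 nt of NFU1 as countable coding positions. LYRM4 has 322 nt, HSCB 378 nt, GLRX5 573 nt and ISCA2 283 nt. These lengths take the isoforms of a gene together, so those of LYRM4 and GLRX5 exceed the 273 and 471 nt of their main transcript. What shortened the others was not tested. ISCU and NFU1 were therefore read over all exons, UTRs included. ISCA1 had fewer than 64 footprints in several total inputs even there, and NFS1 has no value of its own, because it is counted in 1 entry with CPNE1, RBM12 and ENSG00000272897, which overlap it. That joint entry had log2 enrichments of −0.76 and −0.91 at the OMM, −1.35 and −1.14 at the ER and 0.04 and 0.26 in the cytosol, and how much of it is NFS1 was not tested.

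At the OMM, footprints of HSCB, GLRX5 and LYRM4 were higher in the pulldown than in the total input by a factor of 1.69 to 1.97, while ISCA2 was nearer to 0. HSCB had log2 enrichments of 0.99 and 0.97 in replicates 1 and 2 (151 and 285 footprints in the pulldowns), GLRX5 of 1.08 and 0.81 (224 and 399 footprints), LYRM4 of 0.94 and 0.64 (72 and 223 footprints) and ISCA2 of 0.20 and 0.38 (68 and 169 footprints). All 8 values were above 0, and the lower LYRM4 value was still above both ISCA2 values. In the edgeR fit the log2 enrichment was 0.98 ± 0.14 (SE, n = 2 lysates; adjusted p = 1.19e-05) for HSCB, 0.94 ± 0.12 (2.50e-06) for GLRX5 and 0.76 ± 0.15 (0.000364) for LYRM4, while ISCA2 at 0.31 ± 0.15 did not pass (adjusted p = 0.0875). Thus 3 of the 4 measurable members were called higher, where 17.0% of the 6728 genes tested were, and the median of the 4 was 0.85 against −0.38 for all genes. Over all exons, 16.5% of 8431 genes were called higher and all 6 measurable members were. GLRX5 stood at 1.00, HSCB at 0.97, LYRM4 at 0.84, ISCU at 0.75 (0.92 and 0.63 by replicate), ISCA2 at 0.35 (adjusted p = 0.0234) and NFU1 at 0.28 (0.27 and 0.28 by replicate, adjusted p = 0.0319). With either OMM lysate left out 4 of 6 were called, and NFU1 was not among them (adjusted p = 0.127 and 0.228). Under TMM scaling, which sets the median of all genes near 0, ISCA2 in its coding sequence was called as well (0.63), and over all genes 1737 were called higher and 1644 lower, against 1142 and 3092 here.

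With the ligase at the ER, most genes that are not made there are lower in the pulldown, and the members were too, but less than the median gene. GLRX5 had log2 values of −0.15 and −0.15, HSCB of −0.17 and −0.32, LYRM4 of −0.17 and −0.35, ISCA2 of −0.50 and −0.17 and NFU1 of −0.54 and −0.42. Only ISCA2 was called lower (−0.34 ± 0.12, SE, n = 2; edgeR adjusted p = 0.0140), 1 of 5 members where 72.0% of 7381 genes were called lower. The median of all genes was −0.68, and relative to it the 5 members stood 0.19 (NFU1) to 0.53 (GLRX5) above. The sign of all 5 depends on the scale: under TMM, with the median of all genes at −0.03, they were between 0.16 and 0.50, and 4 were called higher, beside 2156 genes called higher and 1874 lower among all, against 1464 and 5317 here. Over all exons, where 72.0% of 8997 genes were called lower, NFU1 (−0.41), ISCU (−0.34) and ISCA2 (−0.31) were called lower, and HSCB (−0.21), GLRX5 (−0.18) and LYRM4 (−0.13) were not.

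With the ligase in the cytosol, no member was called in its coding sequence. LYRM4 had −0.32 and −0.14, ISCA2 0.02 and −0.12, GLRX5 0.27 and 0.21 and HSCB 0.26 and −0.16. The edgeR test called 0 of 4, where 2.02% of 7162 genes were called higher and 5.96% lower. At an unadjusted p below 0.05 there was 1 of 4, beside 21.0% of all genes, and DESeq2 called 0 of 4 and 344 genes in all. Over all exons, where 3.58% of 8979 genes were called higher, ISCU (0.26 and 0.74, estimate 0.48, adjusted p = 0.0118) and NFU1 (0.25 and 0.51, estimate 0.37, adjusted p = 0.0137) were called. Both calls were lost without cytosol replicate 2 (0 of the 7 members then measurable). The sample titles name no sequencing run, so an effect of run on these calls was not tested.

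**Figure D2:**
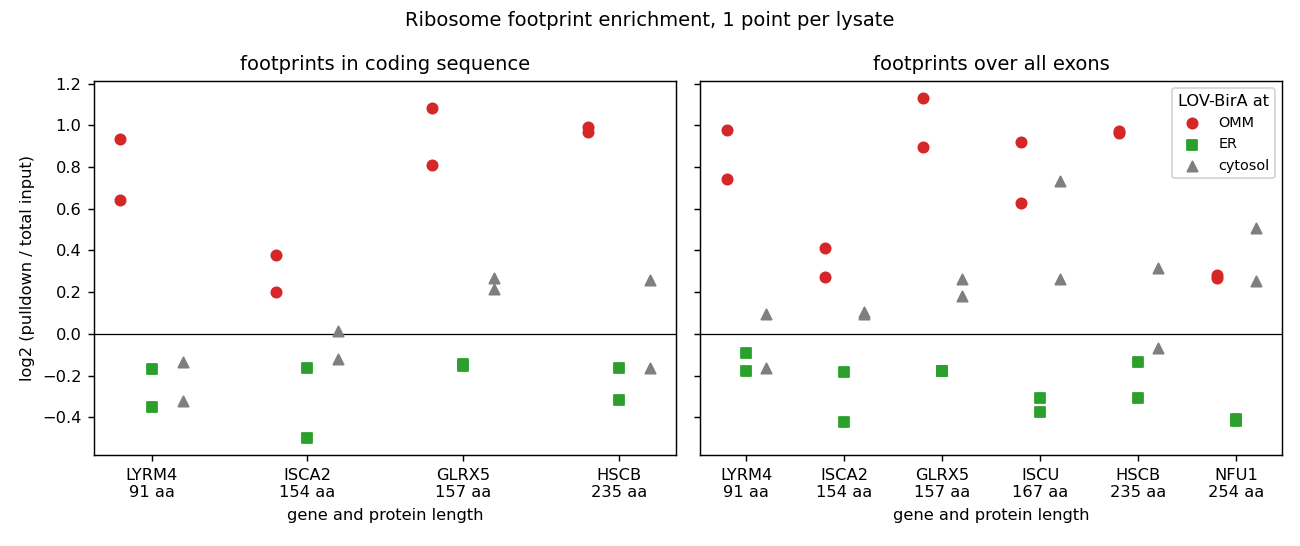
Log2 ratio of pulldown to total input (y axis) for each measurable member, 1 point per lysate, with LOV-BirA at the OMM, ER or in the cytosol. Left, footprints in coding sequences, and right, footprints over all exons. The OMM points of LYRM4, GLRX5 and HSCB lie at 0.64 or higher and above every ER and cytosolic point of the same gene, while those of NFU1 over all exons lie between its cytosolic points.

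Tested directly, OMM enrichment exceeded ER enrichment for all 4 members in coding sequences, by 1.21 ± 0.19 (SE) on the log2 scale for HSCB, 1.09 ± 0.16 for GLRX5, 1.01 ± 0.20 for LYRM4 and 0.65 ± 0.20 for ISCA2 (edgeR adjusted p from 9.43e-06 to 0.0104), where 31.1% of 6675 genes were called higher. Over all exons all 6 passed, NFU1 (0.69) and ISCA2 (0.67) being the smallest and GLRX5 and HSCB (both 1.18) the largest, with 30.2% of 8395 genes called higher. The OMM and ER lysates of replicate 2 were taken as sequenced in 1 run, which the sample titles do not name. Between them the differences were 1.28 for HSCB, 0.99 for LYRM4, 0.95 for GLRX5 and 0.54 for ISCA2. Over all exons they were 1.00 for ISCU and 0.70 for NFU1. ISCA2 lost its call under TMM scaling (0.33, adjusted p = 0.210), where 949 genes were called higher and 1512 lower, against 2074 and 1239 here. OMM enrichment exceeded cytosolic enrichment for LYRM4 (0.99 ± 0.20), HSCB (0.91 ± 0.19) and GLRX5 (0.70 ± 0.15), 3 of 4 members where 16.6% of 6465 genes were called higher, and ISCA2 did not pass (0.36, interval −0.05 to 0.77, adjusted p = 0.127). Under TMM, with 1585 genes called higher and 1346 lower against 1070 and 2569 here, ISCA2 passed as well (0.68). Over all exons LYRM4 (0.89), HSCB (0.82) and GLRX5 (0.78) passed, with 15.9% of 8254 genes called higher. For the others the interval of the difference ran from −0.10 to 0.64 for ISCU, from −0.09 to 0.60 for ISCA2 and from −0.39 to 0.20 for NFU1, and the estimate of NFU1 over all exons was 0.28 at the OMM and 0.37 in the cytosol. In its coding sequence, which entered only with a minimum of 10 footprints, NFU1 read differently. Its log2 enrichments there were 1.27 and 0.99 at the OMM and −0.32 and 0.97 in the cytosol, on as few as 42.2 and 28.8 footprints in a total input. The OMM estimate was 1.07 ± 0.30 (SE, edgeR adjusted p = 0.00599), the difference from the ER 1.56 (adjusted p = 0.00212) and that from the cytosol 0.91 ± 0.39 (adjusted p = 0.0679), so the sign against the cytosol depended on the region counted. With no sequencing run named in the sample titles, run and location cannot be told apart in these comparisons.

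RNA-seq of intact mRNA covered all 8 genes and gave the same question a second readout. In wild-type cells 7 of the 8 mRNAs were higher in the OMM pulldown than in the total input, and NFS1, the gene of the desulfurase itself, was not. The scaffold ISCU had 1754 and 2357 counts in the total inputs and 4034 and 5115 in the pulldowns, log2 enrichments of 0.74 and 0.84. LYRM4 had 774 and 1283 counts against 2452 and 3513, log2 enrichments of 1.20 and 1.18, and NFS1 had 1351 and 1482 counts against 1849 and 2059, log2 enrichments of −0.01 and 0.20. The partners of the desulfurase complex were thus far apart, with both LYRM4 values above both NFS1 values. For the transfer factors, HSCB had 1.07 and 1.30 and GLRX5 1.14 and 1.27. For the late-acting genes, NFU1 had 0.96 and 1.06, ISCA2 0.74 and 0.62 and ISCA1 0.29 and 0.55. The edgeR estimates were 1.20 ± 0.11 (SE, n = 2 lysates) for GLRX5, 1.19 ± 0.09 for LYRM4, 1.19 ± 0.12 for HSCB, 1.01 ± 0.10 for NFU1, 0.79 ± 0.09 for ISCU, 0.68 ± 0.12 for ISCA2 and 0.42 ± 0.11 for ISCA1, all called (adjusted p from 2.73e-05 to 0.00763). NFS1 stood at 0.09 ± 0.09 (interval −0.12 to 0.31, adjusted p = 0.397). Thus 7 of 8 were called higher, where 20.2% of 13856 genes were, and the median of the 8 was 0.90 against −0.28 for all genes. On a scale that centres all genes (TMM, with 4296 genes called higher and 3847 lower against 2803 and 6324 here), NFS1 was called too (0.39, adjusted p = 0.00745). GLRX5, LYRM4 and HSCB were the 3 highest, and their intervals (0.96 to 1.45, 0.97 to 1.40 and 0.92 to 1.45) covered each other's estimates.

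**Figure D3:**
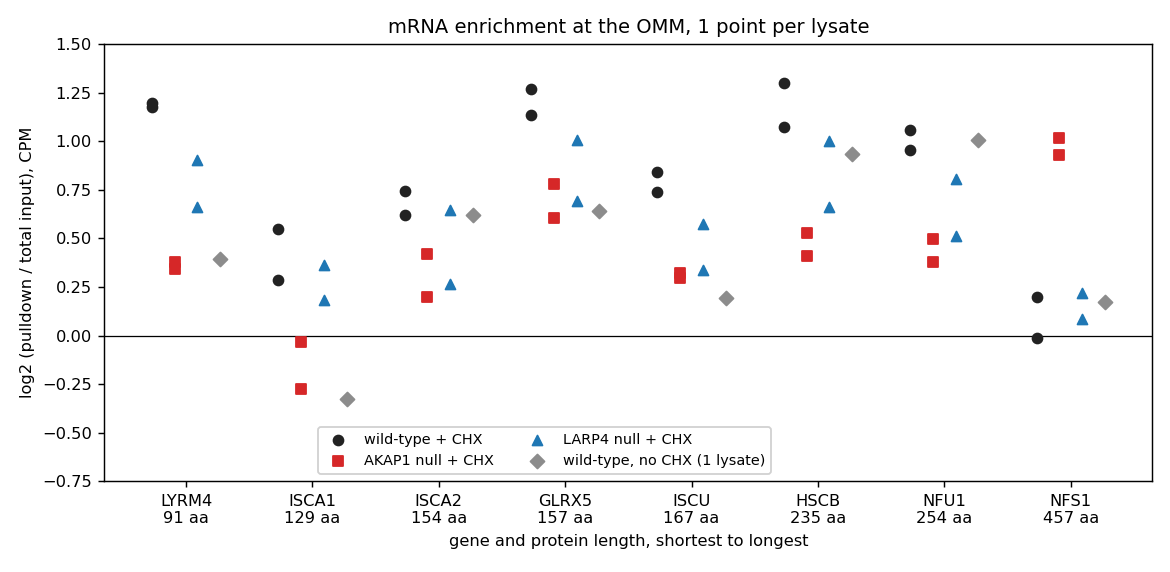
Log2 ratio of pulldown to total input in RNA-seq at the OMM (y axis, CPM with 0.5 counts added) for the 8 genes from the shortest to the longest protein, 1 point per lysate and 1 symbol per group. The AKAP1 null points lie below both wild-type points for 7 genes and above them for NFS1, which reaches 0.93 and 1.02.

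In AKAP1 null cells the order turned: NFS1 had the highest OMM enrichment of the 8 and every other member stood lower than in wild-type. NFS1 had 1451 and 1510 counts in the total inputs and 3131 and 3996 in the pulldowns, log2 enrichments of 0.93 and 1.02. LYRM4 had 1214 and 1007 counts against 1788 and 1666, log2 enrichments of 0.38 and 0.34, and ISCU had 0.30 and 0.32. NFS1 thus lay above both of its wild-type values, and LYRM4 and ISCU below both of theirs. The transfer factors had 0.53 and 0.41 (HSCB) and 0.78 and 0.60 (GLRX5), and the late-acting genes 0.38 and 0.50 (NFU1), 0.42 and 0.20 (ISCA2) and −0.03 and −0.28 (ISCA1). Enrichment within AKAP1 null cells was called for NFS1 (0.97), GLRX5 (0.69), HSCB (0.47), NFU1 (0.44), LYRM4 (0.36) and ISCU (0.31), 6 of 8 where 13.9% of 13856 genes were called higher, and not for ISCA2 (0.31, edgeR adjusted p = 0.0598) or ISCA1 (−0.16, adjusted p = 0.263). Under TMM, with 2772 genes called higher and 2865 lower against 1930 and 3892 here, ISCA2 passed as well (0.44). With 1 AKAP1 null lysate left out, fewer members and fewer of all genes were called. The median of the 8 was then 0.38 (without replicate 1) and 0.40 (without replicate 2).

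The change between genotypes was tested as the difference of the enrichments. LYRM4 fell by 0.83 ± 0.13 on the log2 scale (SE; interval −1.13 to −0.53, edgeR adjusted p = 0.00481), to 0.563 times its wild-type enrichment. NFS1 rose by 0.88 ± 0.13 (interval 0.58 to 1.18, adjusted p = 0.00351), to 1.84 times. The other falls that passed were those of HSCB (−0.72 ± 0.16, adjusted p = 0.0234), NFU1 (−0.57 ± 0.14, adjusted p = 0.0302), ISCA1 (−0.57 ± 0.15, adjusted p = 0.0378) and ISCU (−0.48 ± 0.13, adjusted p = 0.0411). GLRX5 (−0.51 ± 0.15, adjusted p = 0.0534) and ISCA2 (−0.37 ± 0.16, interval −0.74 to 0.0041, adjusted p = 0.153) did not pass. Hence 5 of 8 were called lower and 1 higher, where 7.96% of 13856 genes were called lower and 6.52% higher. The median gene moved by 0.19, and relative to it LYRM4 stood at −1.02, HSCB at −0.90, ISCA1 and NFU1 at −0.76, GLRX5 at −0.70, ISCU at −0.67, ISCA2 at −0.56 and NFS1 at 0.69. Both AKAP1 null lysates lay below both wild-type lysates for 7 of the 8 genes, which held for 22.3% of all genes, and above them for NFS1, which held for 53.4%. All 8 kept their direction in every alternative fit and with any 1 lysate left out. The calls were less stable. GLRX5 passed as well under TMM and in DESeq2 (7 of 8), and none passed in a fit without a term for lysates. Over all genes, calls went from 2006 to 429 without that term. With 1 lysate left out, fewer members and fewer of all genes passed, and the median change of the 8 ranged from −0.60 to −0.44. The scale also sets the split over all genes, with 903 called higher and 1103 lower here, 285 and 1424 under TMM and 368 and 1368 in DESeq2, while the members' split was 1 higher and 6 lower in both of these.

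NFS1 lies among overlapping genes, so its neighbours were read in the same way. CPNE1 and RBM12, which overlap it in the annotation, changed by 0.40 (adjusted p = 0.0761) and 0.35 (adjusted p = 0.179), and their enrichments in AKAP1 null cells were −0.06 and −0.26, against 0.97 for NFS1. Of the exon positions of NFS1, 4.80% are shared with another gene on the same strand and 1.39% with one on the opposite strand. For HSCB 20.2%, for GLRX5 12.6% and for ISCA2 3.40% are shared with a gene on the opposite strand, and whether the counting used strand is not given in the sources used here, so reads of such partners cannot be told apart for these genes. LYRM4, ISCU, ISCA1 and NFU1 share no exon position.

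**Figure D4:**
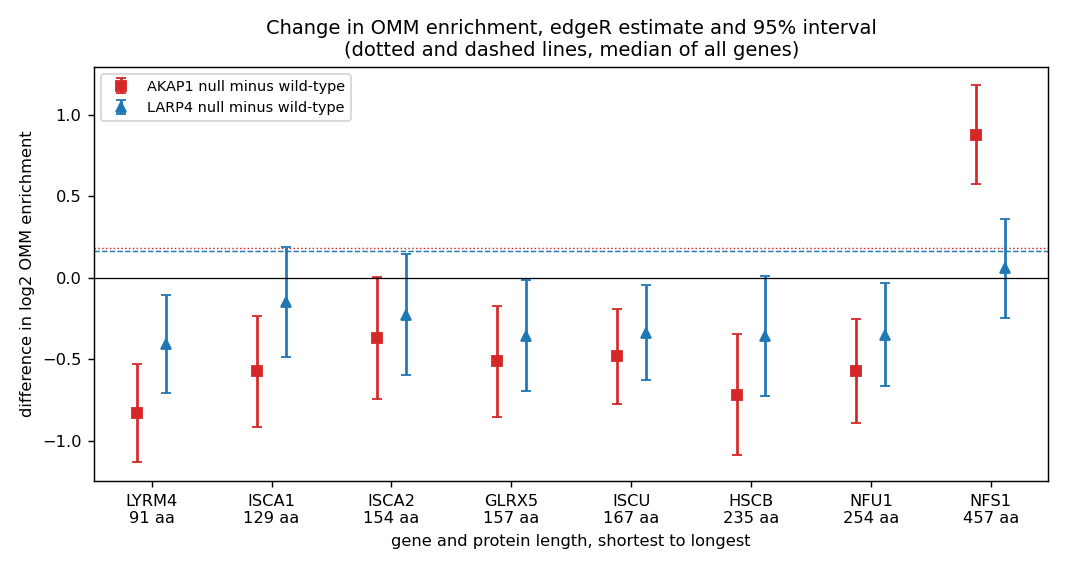
Difference in log2 OMM enrichment between each null line and wild-type (y axis; edgeR estimate, bars are 95% intervals) for the 8 genes from the shortest to the longest protein, with the median of all genes as a dotted line for AKAP1 null and a dashed line for LARP4 null. For AKAP1 null the intervals of 6 shorter genes lie below 0 and that of NFS1 above it, and the LARP4 null estimates lie between −0.41 and 0.06.

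In LARP4 null cells no member passed the test against wild-type. LYRM4 had 0.91 and 0.66, GLRX5 1.01 and 0.69, HSCB 1.00 and 0.66, NFU1 0.81 and 0.51, ISCU 0.57 and 0.34, ISCA2 0.65 and 0.27, ISCA1 0.36 and 0.18 and NFS1 0.08 and 0.22. For each of the 7 shorter genes replicate 2 was the lower. Enrichment within these cells was called for 6 of 8 (GLRX5 0.85, HSCB 0.83, LYRM4 0.78, NFU1 0.66, ISCA2 0.46 and ISCU 0.45), where 22.8% of 13856 genes were, and ISCA1 (0.27, edgeR adjusted p = 0.0569) and NFS1 (0.15, adjusted p = 0.197) were not. Against wild-type, the differences ran from −0.41 (LYRM4, interval −0.71 to −0.11) to 0.06 (NFS1, interval −0.24 to 0.36), with a median of −0.34 against 0.17 for all genes. The edgeR test called 0 of 8 and 0 of 13856 genes (0.0%). At an unadjusted p below 0.05 there were 4 of the 8 and 2270 genes (16.4%), and DESeq2 called 1 of the 8 (LYRM4) and 507 genes. Both LARP4 null lysates lay below both wild-type lysates for 5 of the 8, which held for 12.4% of all genes, and above them for 0, which held for 43.6%. Without LARP4 null replicate 1, the higher of the pair for those 7 genes, 6 of the 8 were called lower, beside 1143 genes called lower and 4521 higher among all. Whether the responses to AKAP1 and LARP4 loss differ was not tested, and both share the wild-type libraries.

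Without CHX, in 1 lysate, the values were 1.01 for NFU1, 0.94 for HSCB, 0.64 for GLRX5, 0.62 for ISCA2, 0.40 for LYRM4, 0.19 for ISCU, 0.17 for NFS1 and −0.33 for ISCA1. LYRM4, GLRX5, HSCB, ISCU and ISCA1 lay below both wild-type lysates with CHX, 5 of 8 where 27.1% of all genes did, and none lay above, where 59.5% did. ISCA2, NFU1 and NFS1 lay within the wild-type pair. With 1 replicate, another light pulse and no genotype or gRNA in its labels, there is no test of this difference.

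By coding length, the 8 genes split as their class did only in part. Nuclear-encoded mitochondrial genes under 200 aa had a median enrichment of 1.17 in wild-type and a median change of −0.87 in AKAP1 null cells (254 genes), those of 200 to 400 aa 0.29 and 0.00095 (402 genes), and those over 400 aa 0.22 and 0.73 (363 genes). LYRM4 (1.19 and −0.83) sat at the middle of the short class in both measures, with 126 of 254 genes more enriched. The changes of ISCU, GLRX5, ISCA1 and ISCA2 were nearer to 0 than that class's median, a gap that was not tested, and ISCA1 was also among its less enriched genes, with 206 of 254 higher. HSCB and NFU1 went with the short class in value rather than with their own: only 32 and 50 of the 402 genes of 200 to 400 aa were more enriched in wild-type, and 31 and 46 had a lower change in AKAP1 null cells. NFS1 (0.09 and 0.88) was near the medians of the long class, with 200 of 363 more enriched in wild-type and 159 with a higher change. In that contrast 0 of 254 short genes were called higher and 167 lower, against 208 of 363 long genes higher and 6 lower. Across the 8 genes, the change in AKAP1 null cells and the protein length had a Pearson's r of 0.87 and Spearman's rho was 0.48, a description over 8 genes that share libraries, in which NFS1 is the 1 long gene.

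The gene with the pattern most like each member was found by the root mean square difference of log2 enrichment over the 13 lysates. In coding sequences, among 6429 genes, this was RGS10 for LYRM4 (0.15), MPC1 for GLRX5 (0.14), NUTF2 for HSCB (0.096) and EMC8 for ISCA2 (0.11). Over all exons, among 8211 genes, it was BIRC5 for ISCU (0.14) and SDHB, the iron-sulfur subunit of succinate dehydrogenase, for NFU1 (0.11). There MPC1 and EMC8 stayed nearest to GLRX5 and ISCA2, but MRPS21 was nearest to LYRM4 (0.11) and TSR3 to HSCB (0.13). For LYRM4 and HSCB the nearest gene thus depended on the region counted. NFS1 and ISCA1 lack footprint values and have no such gene.

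Of other genes of iron-sulfur biology, 3 lists were read beside the members. In wild-type RNA-seq at the OMM, 20.2% of all 13856 genes were called higher and 6324 genes lower. In wild-type cells, 8 of 13 tested mitochondrial partners (ferredoxins, frataxin, Hsp70, BolA proteins and transporters) were called higher and 2 lower, 9 of 13 mitochondrial client proteins higher and 3 lower, and 5 of 10 cytosolic assembly factors higher and 1 lower. The highest partners were BOLA3, which acts with NFU1 (1.94), and NDUFAB1, the acyl carrier protein that binds LYRM4 (1.63). Among clients ETFDH (1.77) and CISD3 (1.65) were highest and NDUFV2 (−1.74) lowest, and among cytosolic factors CIAO2B (2.03). In AKAP1 null cells against wild-type, the partners had 3 rises and 3 falls, the clients 4 and 4 and the cytosolic factors 0 and 3. Of all 13856 genes, 6.52% were called higher and 7.96% lower in that contrast. The Hsp70 HSPA9 (679 aa), which HSCB serves, rose by 1.40, while BOLA3 (107 aa) fell by 1.61 and NDUFAB1 (156 aa) by 0.99. The client ETFDH (617 aa, 1.20) rose, and CISD3 (127 aa, −1.09) and NDUFS8 (210 aa, −1.05) fell. Of the cytosolic factors, CIAO2B (163 aa) fell by 1.52 and CIAO2A (160 aa) by 0.93. Partners of a member therefore moved both with it (NDUFAB1 and LYRM4) and against it (HSPA9 and HSCB).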

How the data were processed

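Footprints were measured in 12 libraries and intact mRNA in 14, grouped by the labels. Footprint reads were cleared of rRNA and tRNA by the authors, placed on GRCh38 by TopHat where the alignment was unique, and counted by plastid on Ensembl genes. They deposited estimated counts per gene region, with each read spread over its central positions, and RPKM, which divides by the reads on any annotated transcript. For RNA-seq, the authors deposited a count per gene from STAR alignments and featureCounts. The deposited values named FPKM are 10.0 times what the counts give, and as a score they entered only ratios. The list of nuclear-encoded mitochondrial genes is the study's, by name only.

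Estimated counts were rounded and tested with edgeR 4.0.16 (quasi-likelihood) in R 4.3.3, with a term per lysate, which pairs each pulldown with its total input as the study does, and a pulldown effect per location or genotype. Each data type had 1 fit to its 12 libraries made with CHX, scaled by library totals (coding or exon counts for footprints). Total inputs were fitted alone with TMM scaling. Genes needed 64 footprints in each total input, or a mean of 64 counts. Tests are two-sided, adjusted by the Benjamini-Hochberg method over all genes tested, and called below an adjusted p of 0.05, and 95% intervals use the SE and degrees of freedom of the fit. Values per lysate are on the same scale as the fits, with 0.5 counts added in RNA-seq. Ratios of the deposited RPKM, at first planned for footprints, are equal to the alternative scaled by all reads on annotated transcripts. Counting depth is given in the report, and the OMM pulldowns hold few footprints per member.

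Across the 3 genotypes, replicate numbers were not taken to pair the samples. The difference between replicates 2 and 1 in total inputs correlated between wild-type and AKAP1 null (0.19) and between wild-type and LARP4 null (0.34). Between the 2 null lines the correlation was −0.067. For enrichments the correlations were −0.027, −0.068 and 0.010 in the same order. Alternatives were TMM, DESeq2 1.42.0, scaling by all reads on transcripts, a minimum of 10, all exons, no lysate term, a replicate block for total inputs, 5 counts added, and leaving out each lysate. Tables and figures were made in Python 3.11.15 (pandas 2.3.3, numpy 2.4.6, matplotlib 3.10.9, scipy 1.17.1). Fits were checked on simulated data.

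The 8 members are all named. Of the other genes of iron-sulfur biology, at most the 2 largest rises and 2 largest falls per list and comparison that were called, with 1 sign in both replicates, are named, except that some are not reported here, as are the most similar gene of each member and the genes that overlap NFS1, the latter added after the footprint tables were seen. Members, lists and tests were chosen with earlier results of these data known. Coordinates and sequences are from GENCODE 44 on GRCh38.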

Additional observations from a re-analysis of the deposited data

Results flagged for a closer look

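Between AKAP1 null and wild-type cells, OMM enrichment in RNA-seq differed by a test of the difference itself for 6 members: LYRM4 by −0.83, HSCB by −0.72, ISCA1 by −0.57, NFU1 by −0.57, ISCU by −0.48 and NFS1 by 0.88 on the log2 scale. NFS1 is the member of the desulfurase complex that rose and LYRM4 the one that fell most. The AKAP1 null line is 1 clone and each genotype has 2 lysates. With 1 lysate left out, fewer of these differences and fewer of all genes passed.

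Between locations of the ligase, footprint enrichment at the OMM and at the ER differed by 1.21 for HSCB, 1.09 for GLRX5, 1.01 for LYRM4 and 0.65 for ISCA2, and between OMM and cytosol by 0.99 for LYRM4, 0.91 for HSCB and 0.70 for GLRX5, again each by a test of the difference. Between the OMM and ER lysates taken as 1 sequencing run, the differences were 1.28, 0.95, 0.99 and 0.54 for HSCB, GLRX5, LYRM4 and ISCA2.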

How the results depend on the processing

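Of the counts of members called under the alternatives, 87 stayed within 1.5 times of the value given, 15 were lower and 8 higher. Without a term per lysate (no replicate block), members called went from 6 to 0 for AKAP1 null against wild-type and from 4 to 1 for OMM against ER. They went from 3 to 0 for OMM against cytosol, from 6 to 2 within AKAP1 null cells and from 1 to 0 at the ER. Over all genes, in the same order, calls went from 2006 to 429, 3313 to 1344, 3639 to 254, 5822 to 2198 and 6781 to 4486. In total inputs the replicate block called 0 members, as did the fit without it, and turned 1 value, that of GLRX5 in AKAP1 null cells, to 0.00076. At the ER, TMM called 4, DESeq2 2, all exons 3 and scaling by all reads 0. At the OMM all exons called 6. In the cytosol all exons called 2 and scaling by all reads 1, with 2381 genes called higher and 253 lower among all. DESeq2 called 1 for LARP4 null against wild-type.

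With 1 lysate left out, members called ranged from 0 to 2 for AKAP1 null against wild-type, 0 to 6 for LARP4 null against wild-type, 1 to 2 within AKAP1 null cells and 0 to 1 at the ER. Over all exons (alternatives chosen after seeing the data) they ranged from 1 to 3 at the ER and 0 to 2 in the cytosol. A lone lysate is assumed to vary like the other groups. The counts called over all genes moved in the same fits.

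Signs turned at the ER under TMM (LYRM4 0.40, ISCA2 0.30, GLRX5 0.50, HSCB 0.41, NFU1 0.16), in DESeq2 (0.36, 0.27, 0.46, 0.37 and 0.13 in the same order) and with scaling by all reads (LYRM4 0.038, GLRX5 0.14, HSCB 0.053), as the median of all genes moved from −0.68 to −0.03, −0.07 and −0.39. NFS1 in LARP4 null against wild-type turned to −0.15 under TMM and in DESeq2, and ISCA2 in the cytosol to 0.18 with scaling by all reads and 0.10 over all exons. GLRX5 in total inputs turned to 0.0012 (DESeq2) and 0.0036 (mean of 10 counts) for AKAP1 null and to 4.06e-05 (DESeq2) for LARP4 null, all near 0. Beyond the shift in scale, the cause was not tested.

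With 1 lysate left out, values whose sign turned ranged from −0.047 to 0.16 for NFS1 in LARP4 null against wild-type, −0.012 to 0.20 for NFS1 in wild-type, −0.23 to 0.023 for NFU1 in OMM against cytosol over all exons, and −0.12 to 0.016 (ISCA2) and −0.16 to 0.26 (HSCB) in the cytosol. In AKAP1 null total inputs they ranged from −0.22 to 0.31 (LYRM4), −0.20 to 0.013 (ISCA1), −0.18 to 0.056 (ISCA2), −0.10 to 0.11 (GLRX5), −0.19 to 0.047 (ISCU), −0.0095 to 0.11 (NFU1) and −0.20 to 0.12 (NFS1), and in LARP4 null total inputs from −0.072 to 0.46 (LYRM4), −0.16 to 0.23 (ISCA1), −0.11 to 0.10 (GLRX5), −0.087 to 0.15 (ISCU) and −0.044 to 0.12 (NFS1). None of these was called.

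Depth limits the OMM footprint values, with 67.5 to 399 pulldown footprints for a measurable member in its coding sequence.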

Other observations

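Other genes of iron-sulfur biology were also read by footprints. Of all 6728 genes tested at the OMM, 17.0% were called higher and 3092 genes lower. At the OMM 5 of 9 tested mitochondrial partners were called higher and 1 lower, 5 of 8 clients higher and 2 lower, and none of 8 cytosolic factors in either direction. Against the ER, BOLA3 (1.6) was higher at the OMM among partners, CISD3 (1.78) and NDUFV1 (1.73) among clients, and CIAO2B (1.23) and NUBP1 (0.92) among cytosolic factors. Against the cytosol, the iron importer SLC25A28 (−0.76) and IBA57 (−0.75), which acts with ISCA1 and ISCA2, were lower at the OMM. IBA57 was also lower in the wild-type RNA-seq pulldown (−0.59), the opposite direction to ISCA1 and ISCA2 there. In LARP4 null against wild-type cells no gene of the 3 lists was called in edgeR.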
